A study of Mus musculus with 8 samples.

Results

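The genes described here encode the mitochondrial carriers of the SLC25 family and the uncoupling proteins Ucp1, Ucp2 and Ucp3. They were chosen by name: every non-control probe of the arrays whose gene name began with Slc25a and a number, or was Ucp1, Ucp2 or Ucp3. That rule gave 62 probes for 50 genes, of which 54 probes and 45 genes were bright enough to test, out of 23985 genes tested on the whole array. Total RNA of mouse liver was hybridised to 8 one-colour Agilent arrays (dye Cy3), 4 from livers labelled AdLeXis and 4 from livers labelled AdGFP. The names are of the usual form for adenoviral vectors, one carrying LeXis, a long non-coding RNA, and one carrying green fluorescent protein. Both groups were bl6 mice aged 12 weeks and fed chow, and RNA was isolated on day 6. Every liver in the comparison had therefore received a vector, and no untreated liver was part of it. The treatment text of the labels names another pair of vectors, a control and one against Raly; the grouping used here follows the treatment tag, and the level of LeXis itself was not analysed here. Whether the 8 samples are 8 animals is not stated in the labels, and p-values therefore describe variation among samples that may include technical variation.

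Carriers of the SLC25 family sit in the inner membrane of the mitochondrion, apart from a few in other membranes, and exchange metabolites between matrix and cytosol. They move adenine nucleotides and phosphate for ATP synthesis, citrate, malate and acylcarnitines for lipid and sugar metabolism, amino acids for the urea cycle, and cofactors that matrix enzymes need. Uncoupling proteins belong to the same family, and Ucp1 lets protons back into the matrix in brown fat, which makes heat. Carriers are made in the cytosol and imported through the TOM and TIM22 complexes.

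Of the 45 tested carriers, 7 passed the threshold (an adjusted p under 0.05 in limma with Benjamini-Hochberg adjustment over all genes), which is 15.6% of them. Over all genes the share was 17.5%, close to that of the carriers. Those higher with AdLeXis, 4 in number, included Slc25a11, Slc25a51 and Slc25a32, while Slc25a25, Slc25a24 and Slc25a30 were lower. Over the whole array 8.74% of genes passed in the higher direction and 8.77% in the lower. These shares belong beside every count by role or list that follows. Of these 7, 4 differed by more than 1.5-fold and none by 2-fold. The median difference over the carriers was -0.09 (log2, AdLeXis minus AdGFP), with 18 above 0 and 27 below, against -0.0018 over all genes. The 4 arrays of one group lay wholly on one side of the 4 of the other for 11 carriers, 6 higher and 5 lower, where 24.7% of all genes were separated in this way. The 38 carriers that were not called differed by 0.0023 to 0.52 in size, 25 of them with a 95% interval that stayed within 1.5-fold in either direction, and 8 of them had an unadjusted p under 0.05. Values are log2 signals scaled on each array's 75th percentile; they compare one probe across arrays and do not rank one gene against another. The standard deviation within a group had a median of 0.14 over the carriers with AdGFP and 0.20 with AdLeXis.

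**Figure D1:**
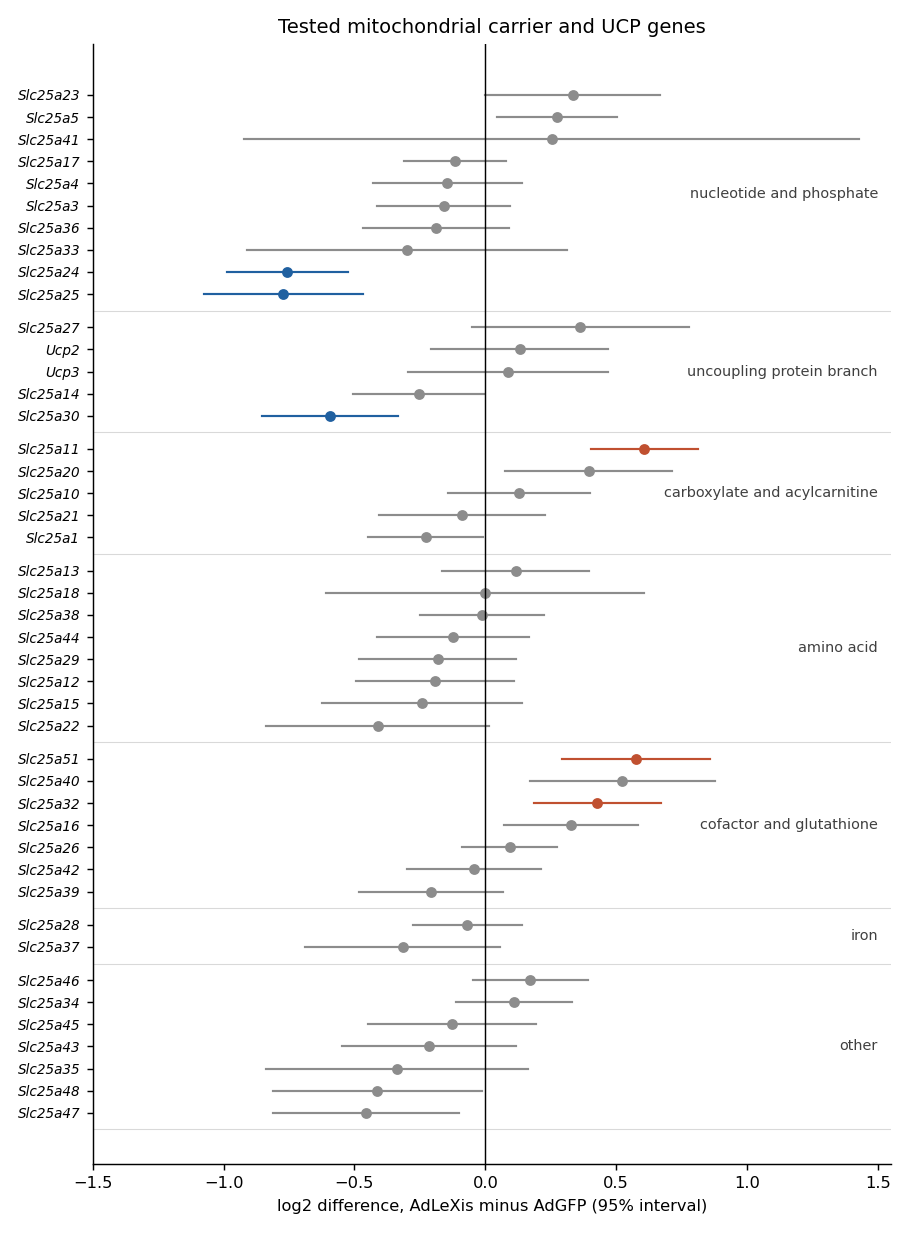
Log2 difference, AdLeXis minus AdGFP, of 44 of the 45 tested carriers with its 95% interval, grouped by what the carriers transport; blue marks 3 genes that were lower and red 3 that were higher at an adjusted p under 0.05, and grey the 38 that did not pass. The intervals of 2 nucleotide carriers, Slc25a24 and Slc25a25, lie farthest below 0, and Slc25a11, Slc25a51 and Slc25a32 stand out above 0.

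Several measures moved with the group and bear on every comparison that follows. Unscaled arrays were brighter with AdLeXis: their 75th percentile was 381 to 448 intensity units, against 220 to 297 with AdGFP, and 62.6% to 67.7% of their spots stood well above background, against 58.9% to 62.5%. All arrays lay on one slide with the AdGFP arrays in one row and the AdLeXis arrays in the other, so slide row and group cannot be told apart. Hepatocyte markers, all 14 of which were well above background on all 8 arrays, included 9 that were lower with AdLeXis and none that was higher; their summed level (log2) was 21.56 to 21.64 with AdGFP and 21.00 to 21.22 with AdLeXis. Under quantile scaling 1 of the 14 was called lower, and under normexp background correction 1 lower and 1 higher. Most of the 9, such as Alb (18.79), Ahsg (18.31) and Rbp4 (17.82), had a mean above 16 on the scaled log2 signal. Of all 400 genes above 16, 157 were called lower and 3 higher, with a median difference of -0.23. Whether the hepatocyte markers fell apart from other genes as bright was not tested. Markers of T and NK cells were lower for 13 of 14 (14.38 to 14.43 against 13.43 to 13.53), and markers of Kupffer cells for 5 of 12 (17.12 to 17.46 against 16.72 to 17.05), or 3 of 12 without AdGFP 1, AdGFP 2 or AdLeXis 2 or with no filter on dim probes, 8 with scaling on the median and 9 with an intensity trend in eBayes. Of the 12 Kupffer markers 10 differences lay below 0 and 2 above. Those above were Vsig4 by 0.50 (limma adjusted p = 0.0936) and Clec4f by 0.10 (limma adjusted p = 0.754), so the list did not move as one. In bulk liver, fewer cells of a type and less RNA per cell cannot be told apart. The part of these shifts in the carriers' differences was not tested.

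The carriers of adenine nucleotides and phosphate gave the largest decreases. Of 11 such genes 10 were tested; Slc25a24 and Slc25a25 fell, none rose, and the median difference was -0.15. Both encode ATP-Mg/phosphate carriers, which shift the total pool of adenine nucleotides between cytosol and matrix and carry calcium-binding domains. Slc25a24 read 7.53, 7.29, 7.61 and 7.54 on the 4 AdGFP arrays and 6.80, 6.75, 6.57 and 6.84 on the 4 AdLeXis arrays. All AdLeXis values lay below all AdGFP values, with a gap wider than the spread inside either group. The difference was -0.76 ± 0.10 (SE, n = 4 per group, 1.69-fold lower, limma adjusted p = 0.00272). It passed under all 20 other settings, among which are the fits with each array left out. Its probe lies on chromosome 3 at 108971266-108971325 (mm9, plus strand).

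Slc25a25 read 14.09, 14.01, 14.17 and 14.15 with AdGFP and 13.47, 13.61, 13.23 and 13.01 with AdLeXis. The AdGFP arrays were nearly level, and every AdLeXis array fell below them. It fell by 0.77 on the log2 scale (SE 0.13; 1.71-fold; limma adjusted p = 0.00710), again under all 20 other settings. This probe lies on chromosome 2 at 32270275-32270334 (mm9, minus strand). A second Slc25a25 probe, at 32270490-32270549 of the same chromosome, read 12.90, 12.79, 13.00 and 12.21 with AdGFP and 12.18, 12.48, 12.00 and 11.70 with AdLeXis. There AdGFP 4 lay inside the AdLeXis range, and the difference of -0.64 (SE 0.22) did not pass over all probes (limma adjusted p = 0.0851).

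The stretches of promoter from 250 bases before to 50 after the annotated start (RefSeq, GRCm38.p6) are shown for Slc25a24 and Slc25a25, the ATP-Mg/phosphate carriers that fell together. Slc25a25 has 3 such windows from alternative starts, and the one that holds a full cAMP response element (CRE, TGACGTCA, in capitals) is shown. Its first base lies at position -150 from the start. The windows are chr3:109122899-109123198 (plus strand) and chr2:32424017-32424316 (minus strand).
Slc25a24: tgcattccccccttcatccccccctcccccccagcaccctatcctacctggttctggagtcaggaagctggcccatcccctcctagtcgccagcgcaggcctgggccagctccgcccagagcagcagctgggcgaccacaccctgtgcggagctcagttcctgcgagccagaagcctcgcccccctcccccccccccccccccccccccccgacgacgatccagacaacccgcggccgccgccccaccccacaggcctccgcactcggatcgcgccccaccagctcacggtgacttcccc
Slc25a25: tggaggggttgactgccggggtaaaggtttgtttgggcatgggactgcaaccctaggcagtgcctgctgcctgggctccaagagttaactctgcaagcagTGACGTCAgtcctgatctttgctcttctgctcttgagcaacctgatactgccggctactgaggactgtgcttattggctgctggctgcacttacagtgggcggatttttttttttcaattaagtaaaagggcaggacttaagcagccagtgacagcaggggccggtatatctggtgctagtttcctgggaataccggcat
A CRE of these 8 letters stands in 1.79% of 32851 promoter windows of all genes and in 2 of the 49 windows found for carriers, those of Slc25a25 and Slc25a36. The Slc25a24 window holds none of the 5 motifs searched on both strands: CRE, E-box (CACGTG), a loose AP-1 pattern (TGANTCA, N being any base), ETS (CCGGAAG) and the palindromic NRF1 motif. Another Slc25a25 window, at chr2:32451421-32451720, holds an ETS match that begins at base 8 of the transcript. A match of letters is a description of the window and says nothing of binding.

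Slc25a23 and Slc25a41 encode the other ATP-Mg/phosphate carriers. Slc25a23 read 8.52 to 8.69 with AdGFP and 8.50, 8.99, 9.21 and 9.00 with AdLeXis, a difference of 0.33 (SE 0.15; limma adjusted p = 0.157). Its AdLeXis arrays 2, 3 and 4 lay above all AdGFP arrays, and AdLeXis 1 lay below them. Without AdLeXis 1 Slc25a23 passed at 0.48 (limma adjusted p = 0.0160). In 19 of the 20 other settings it was not called, with 0.15 under normexp (limma adjusted p = 0.452). Slc25a41 was near background, well above it on 3 arrays of each group, and its difference of 0.25 had an interval from -0.92 to 1.43. The ADP/ATP carriers Slc25a4 and Slc25a5, which export ATP from the matrix, differed by -0.14 (SE 0.12) and 0.27 (SE 0.10); neither passed (limma adjusted p = 0.472 and 0.0965). Slc25a3, the phosphate carrier, differed by -0.16 (SE 0.11) on one probe and by 0.07 (SE 0.09) on another. Slc25a17, a carrier of the peroxisome, differed by -0.12 (SE 0.09), and Slc25a36, a pyrimidine nucleotide carrier, by -0.19 (SE 0.12). Slc25a33, the other pyrimidine nucleotide carrier, had the widest spread of all 45 with AdLeXis (SD 0.55): its AdLeXis arrays read 10.76, 11.48, 12.07 and 11.63 against 11.41 to 12.05 with AdGFP. On its second probe AdLeXis 1 was again the lowest array and AdLeXis 3 the highest of its group (7.97, 8.93, 9.44 and 8.90). Neither Slc25a33 probe passed, with differences of -0.30 (SE 0.27) and -0.37 (SE 0.29).

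Slc25a5 carried a second probe that behaved unlike the first. The first probe read 12.82, 12.89, 12.89 and 12.57 with AdGFP and 12.94, 13.11, 13.07 and 13.15 with AdLeXis, so the groups stood apart by a narrow gap. The second, on chromosome X at 34338748-34338807 (mm9, plus strand), failed the test for signal well above background on all AdGFP arrays (1.45, 0.85, 1.21 and 2.34) and passed it on all AdLeXis arrays (6.60, 2.98, 3.36 and 3.15). AdLeXis 1 stood far above the other AdLeXis arrays. The mean of the AdLeXis arrays was 2.53-fold above a floor set for the AdGFP arrays, or 1.39-fold without AdLeXis 1. The measured means were 4.02 and 1.46, and the probe did not pass over all probes (limma adjusted p = 0.0617). For such a floor, the AdGFP side is the higher of the probe's own signal and the lowest signal of any probe well above background on that array. A signal above that lowest one can still fail the test for well above background, so the fold is not a strict lower limit. The dimmer Slc25a40 probe, for instance, read up to 2.79 with AdGFP and failed on every AdGFP array, where the floor averaged 2.68. The last 30 bases of both probes are given because their base composition differs.
Slc25a5 first probe: gattctctgagcttgtctgttttatcagtg
Slc25a5 second probe: gaagaaataaaaatatctaaaaccaaaaaa
Adenine made up 55.0% of the 60 bases of the second probe, a share above that of 99.86% of all probes, and 23.3% of the first. What the second probe measured was not tested. On its first probe alone, Slc25a5 was called higher with cyclic loess at 0.31 (limma adjusted p = 0.0453) and under normexp at 0.63 (adjusted p = 0.00226). An intensity trend in eBayes also gave a call (limma adjusted p = 0.0491). The mean of both probes was called too, but it takes in the second probe, which the filter kept through its AdLeXis arrays alone. That call therefore adds nothing to those of the first probe. In 16 of the 20 other settings Slc25a5 was not called.

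**Figure D2:**
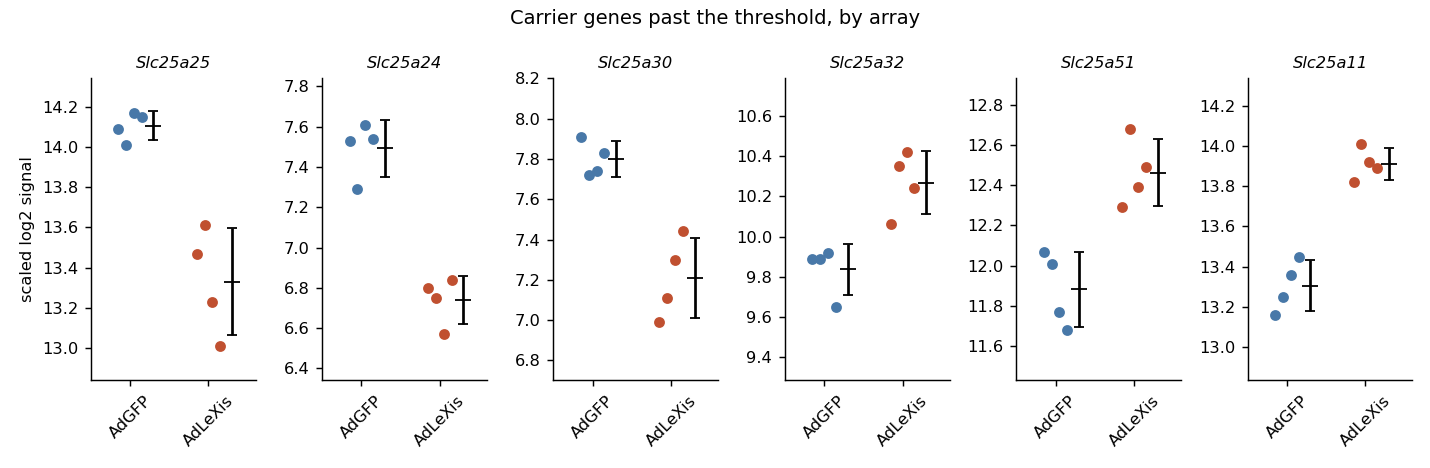
Scaled log2 signal (vertical axis, each panel spanning the same 1.5 units) on the 4 AdGFP arrays (blue) and the 4 AdLeXis arrays (red) for 6 of the 7 carriers past the threshold, with the mean and SD of each group in black. Every panel shows a gap between the groups, from 7.29 down to 6.84 for Slc25a24 and, the narrowest, from 9.92 up to 10.06 for Slc25a32.

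Among the uncoupling proteins and their nearest relatives 5 of 6 genes were tested. Slc25a30, the kidney mitochondrial carrier protein, was the one that passed, and it was lower. It read 7.91, 7.72, 7.74 and 7.83 with AdGFP and 6.99, 7.11, 7.30 and 7.44 with AdLeXis. The groups did not overlap, and the AdLeXis arrays spread more widely than the AdGFP arrays. The difference was -0.59 ± 0.11 (SE, n = 4 per group; 1.51-fold lower; limma adjusted p = 0.0106). With normexp background correction it was -0.13 (adjusted p = 0.341); it passed under the other 19 settings. Its probe lies on chromosome 14 at 76161882-76161941 (mm9, minus strand). Slc25a14, a brain-enriched relative, was narrowly separated, with AdGFP arrays at 9.18 to 9.30 and AdLeXis arrays at 8.77 to 9.17, and a difference of -0.26 (SE 0.11; limma adjusted p = 0.148; called lower under normexp at -0.39). Slc25a27, another such relative, differed by 0.36 (SE 0.18; adjusted p = 0.209) and passed without AdGFP 1 at 0.53 (adjusted p = 0.0349). In 19 of the 20 other settings Slc25a27 was not called. Ucp2, which is widely expressed, read 10.33 to 10.85 and 10.48 to 10.91, a difference of 0.13 (interval -0.21 to 0.47). Ucp3, best known from muscle, read 9.69 to 10.20 and 9.76 to 10.36 on its brighter probe, a difference of 0.09 (interval -0.30 to 0.47). A second Ucp3 probe was not well above background on any array, so the 2 probes of Ucp3 disagree on whether it was detected.

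Ucp1, the brown fat uncoupling protein, was not well above background on any of the 8 arrays. Other genes used as brown fat markers were not all silent: of 10, 7 could be tested and 3 (against 8.74% of all genes) were higher with AdLeXis. They were Adrb3, the beta-3 adrenergic receptor, by 2.07 (SE 0.16; limma adjusted p = 0.000425), Cox7a1, a cytochrome c oxidase subunit, by 1.01 (SE 0.15; adjusted p = 0.00382), and Cox8b, another such subunit. Cox8b was not well above background with AdGFP on any of the 4 arrays (1.74, 2.20, 0.63 and 2.76). All AdLeXis arrays were so (3.38, 3.62, 3.88 and 3.56). The measured means were 3.61 with AdLeXis and 1.83 with AdGFP (limma adjusted p = 0.0190). The AdLeXis mean was 1.88-fold above the floor described for Slc25a5. The filter kept Cox8b through its AdLeXis arrays alone, so its p-value rests on AdGFP readings at background. Under normexp Cox8b was not called. Dio2, Prdm16 and Adipoq, which define brown or white fat, were too dim to test. The tested markers that did not pass went both ways: Cidea differed by 1.04, Plin1 by 0.14, Ppargc1a by -0.09 and Elovl3 by -0.53. The summed level of the tested brown fat markers ran from 12.40 to 12.54 with AdGFP and from 12.16 to 12.92 with AdLeXis, which overlap. That sum adds unlogged signals, so it leans on Elovl3, the brightest on average. Elovl3 read 10.05 on AdLeXis 1 and 11.59 to 11.97 on the other AdLeXis arrays.

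The carriers of carboxylates and acylcarnitines numbered 5, all tested, with 1 higher, none lower and a median of 0.13. Slc25a11 is the oxoglutarate/malate carrier of the malate-aspartate shuttle, which brings reducing equivalents into the matrix. It read 13.16, 13.25, 13.36 and 13.45 with AdGFP and 13.82, 14.01, 13.92 and 13.89 with AdLeXis. The groups were well apart and the AdLeXis arrays clustered tightly. Slc25a11 rose by 0.61 ± 0.09 (SE, n = 4 per group; 1.52-fold; limma adjusted p = 0.00394), under all 20 other settings as well. The probe lies on chromosome 11 at 70457739-70457798 (mm9, minus strand). Its promoter window, chr11:70646990-70647289 (GRCm38.p6, minus strand), is shown since Slc25a11 had the largest rise of the 4 carriers that were higher. The capitals mark a match to TGANTCA, a loose AP-1 pattern with any base in the middle, here T. The match begins at position -144 from the start. This loose pattern was found in 7.81% of all windows and in 2 of the carriers' 49. The stricter AP-1 form, with C or G in the middle, was not searched.
Slc25a11: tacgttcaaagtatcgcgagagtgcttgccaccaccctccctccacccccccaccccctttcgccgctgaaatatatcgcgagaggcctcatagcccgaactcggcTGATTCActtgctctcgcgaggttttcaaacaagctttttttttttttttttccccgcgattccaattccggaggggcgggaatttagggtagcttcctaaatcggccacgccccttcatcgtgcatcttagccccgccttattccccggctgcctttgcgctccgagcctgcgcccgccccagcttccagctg
Slc25a20, the carnitine/acylcarnitine carrier that admits fatty acids for beta-oxidation, differed by 0.39 (SE 0.14; limma adjusted p = 0.0873). Its AdLeXis 1 value, 11.25, fell among the AdGFP values of 11.10 to 11.42, while the other AdLeXis arrays read 11.69 to 11.81. Without AdLeXis 1 Slc25a20 passed at 0.52 (limma adjusted p = 0.0145). In 18 of the 20 other settings it was not called, with 0.16 under normexp (limma adjusted p = 0.372). Slc25a1, the citrate carrier that feeds lipid synthesis in the cytosol, differed by -0.23 (SE 0.10; adjusted p = 0.144) and passed under normexp at -0.38 (adjusted p = 0.0112). Slc25a10, the dicarboxylate carrier, differed by 0.13 (SE 0.12) and Slc25a21, the oxodicarboxylate carrier, by -0.09 (SE 0.14); under normexp both changed sign, to -0.07 and 0.11.

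None of the 8 tested amino acid carriers passed in limma, and 0 had an unadjusted p under 0.05. Of the differences 1 lay above 0 and 7 below, with a median of -0.15. Slc25a22, a glutamate carrier, had the smallest p: it read 7.58, 7.15, 6.78 and 7.04 with AdGFP and 6.62, 7.09, 6.58 and 6.60 with AdLeXis. AdLeXis 2 stood apart from the other AdLeXis arrays and inside the AdGFP range. The difference was -0.41 ± 0.19 (SE, n = 4 per group; limma adjusted p = 0.170). Slc25a18, the other glutamate carrier, was dim, well above background on 2 AdGFP and 3 AdLeXis arrays, and both group means were 3.24. The aspartate/glutamate carriers Slc25a12 and Slc25a13, the second of which is the liver form known as citrin, differed by -0.19 (SE 0.13) and 0.12 (SE 0.12); the value of Slc25a12 was 0.04 under normexp. Slc25a15, the ornithine carrier of the urea cycle, differed by -0.24 (interval -0.62 to 0.14). Slc25a29, which carries basic amino acids, differed by -0.18 (0.07 under normexp), Slc25a38, which brings in glycine for haem synthesis, by -0.01, and Slc25a44, a carrier of branched-chain amino acids, by -0.12 on one probe and 0.07 on the other. The 95% intervals of Slc25a12, Slc25a13, Slc25a29, Slc25a38 and Slc25a44 stayed within 1.5-fold in either direction.

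Carriers of cofactors and glutathione held 3 of the 4 genes that rose. Of 8, all tested, 3 were higher and none lower, 6 differences lay above 0 and the median was 0.36. Over all genes 8.74% were higher and 8.77% lower. The role was not tested as a set. Slc25a51, the carrier of NAD+ into the matrix, read 12.07, 12.01, 11.77 and 11.68 with AdGFP and 12.29, 12.68, 12.39 and 12.49 with AdLeXis. The lowest AdLeXis array exceeded the highest AdGFP array. The difference was 0.58 ± 0.12 (SE, n = 4 per group; 1.49-fold higher; limma adjusted p = 0.0162). A second Slc25a51 probe, on chromosome 4 at 45408796-45408855 (mm9, minus strand), gave 0.44 (SE 0.11) and passed over all probes (adjusted p = 0.0334). With each array scaled on its median, the first probe gave 0.49 (adjusted p = 0.0667). It lies on chromosome 4 at 45411481-45411540 (mm9, minus strand).

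Slc25a32, a carrier of folate and of flavin adenine dinucleotide, read 9.89, 9.89, 9.92 and 9.65 with AdGFP and 10.06, 10.35, 10.42 and 10.24 with AdLeXis. All AdLeXis values were above all AdGFP values, and AdGFP 4 stood below its own group. It rose by 0.43 ± 0.11 (SE, n = 4 per group; 1.35-fold; limma adjusted p = 0.0284). Without AdGFP 1, AdGFP 2, AdGFP 4, AdLeXis 2, AdLeXis 3 or AdLeXis 4 the adjusted p lay between 0.0560 and 0.0730, and with scaling on the median it was 0.120 at a difference of 0.35; with no filter on dim probes it was 0.0586. Under normexp the difference was 0.67. The probe of Slc25a32 lies on chromosome 15 at 38926713-38926772 (mm9, minus strand).

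Slc25a40, one of a pair of glutathione carriers, lay just outside the threshold. It read 7.03, 6.79, 6.67 and 6.34 with AdGFP and 7.15, 7.37, 7.04 and 7.36 with AdLeXis, groups that met without overlapping. The difference was 0.52 ± 0.15 (SE, n = 4 per group; limma adjusted p = 0.0504), and it passed among genes well above background on all 8 arrays (adjusted p = 0.0361) and without AdGFP 1 (0.0328). In 17 of the 20 other settings Slc25a40 was not called. It differed by 0.23 under normexp (limma adjusted p = 0.165) and by 0.44 with scaling on the median (limma adjusted p = 0.142). Slc25a39, its close relative, differed by -0.21 (SE 0.12; adjusted p = 0.275); the difference between the pair was not tested. Slc25a16, a carrier linked to coenzyme A, differed by 0.33 (SE 0.11; adjusted p = 0.0802); it passed under normexp (0.51; adjusted p = 0.00422) and without AdLeXis 1 (0.42; adjusted p = 0.0249). In 17 of the 20 other settings it was not called, with 0.24 under scaling on the median (limma adjusted p = 0.258). Slc25a26, which carries S-adenosylmethionine, differed by 0.09 (SE 0.08; -0.05 under normexp) and its other probe by 0.13 (SE 0.11). Slc25a42, a carrier of coenzyme A, differed by -0.04 (interval -0.30 to 0.21).

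Neither iron carrier passed in limma, and 0 of the 2 had an unadjusted p under 0.05. Slc25a37, mitoferrin of red cell precursors, read 11.11, 11.67, 11.81 and 11.47 with AdGFP and 11.03, 11.15, 11.45 and 11.18 with AdLeXis. The groups overlapped, and the difference was -0.32 ± 0.16 (SE, n = 4 per group; limma adjusted p = 0.222). A second probe of Slc25a37 gave -0.02 (SE 0.12). Slc25a28, the mitoferrin of other tissues, differed by -0.07 (interval -0.28 to 0.14). Of 11 erythroid markers 8 were tested and 1 was higher (Ahsp, the alpha-globin chaperone, by 1.09; limma adjusted p = 0.0489), a call that was lost without AdGFP 1, AdGFP 3, AdGFP 4, AdLeXis 1, AdLeXis 2 or AdLeXis 4 and under quantile, median, cyclic loess or normexp scaling. Ahsp was dim, with 3 of 4 AdGFP arrays well above background, and its groups overlapped. Of the 8 differences 5 lay above 0 and 3 below, with a median of 0.08. Alas2 was among those below, at -0.59 (limma adjusted p = 0.109).

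The remaining 9 family members, several of them without a settled substrate, included 7 that were tested. None passed in limma, 2 had an unadjusted p under 0.05, and their median difference was -0.22. Slc25a47, a carrier found mainly in liver, had the smallest p: it read 16.16, 16.32, 16.10 and 16.10 with AdGFP and 15.33, 15.76, 16.10 and 15.67 with AdLeXis. AdLeXis 3 equalled the lowest AdGFP arrays to 2 decimals and lay just below them before rounding, and the other AdLeXis arrays were lower. The difference was -0.46 ± 0.16 (SE, n = 4 per group; limma adjusted p = 0.0783). Without AdLeXis 3 it was -0.59 (adjusted p = 0.0269), whereas under normexp it was 0.03 (adjusted p = 0.908). Among genes with a mean of 14 to 16 on this scale, as Slc25a47 has, 110 were called lower and 44 higher. Above 16, where no carrier lay, the counts were 157 lower and 3 higher. Slc25a48, a choline carrier, differed by -0.41 (SE 0.17; adjusted p = 0.143) and passed without AdLeXis 1 at -0.57 (adjusted p = 0.0211). In 19 of the 20 other settings it was not called, with -0.21 under normexp (limma adjusted p = 0.201). Slc25a35 differed by -0.34 (SE 0.22), Slc25a43 by -0.22 (SE 0.15), Slc25a45 by -0.13 (SE 0.14) and Slc25a34 by 0.11 (SE 0.10). Slc25a46, a relative that sits in the outer membrane and shapes mitochondria, differed by 0.17 (SE 0.10) on its brighter probe and by 0.46 (SE 0.20; adjusted p over probes 0.158) on the other.

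A further 5 carriers were too dim to test: Slc25a2, Slc25a31, Slc25a53, Slc25a54 and Ucp1. Slc25a31, an ADP/ATP carrier of sperm, Slc25a54 and Ucp1 stood well above background on 0 of 8 arrays, Slc25a2 on 1 AdLeXis array, and Slc25a53 on 1 AdGFP and 2 AdLeXis arrays with 1 of its 2 probes. Smcp, the sperm mitochondrial capsule protein on the list of germ cell markers, read 4.17, 4.12, 2.77 and 2.37 with AdGFP, where 2 of 4 arrays were well above background, and 6.36, 8.01, 7.30 and 9.05 with AdLeXis, where all were. The groups did not overlap, and Smcp was the 1 of 6 tested markers on that list that passed (limma adjusted p = 0.00368); since AdGFP was in part at background, no size is given for the difference. Ddx4, Dazl, Tnp2, Ldhc, Pgk2 and Odf1 of the same list were too dim to test, and of 8 muscle markers 3 were tested and 0 passed (0 with an unadjusted p under 0.05).

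Some carrier genes are neighbours. By probe position on mm9, 5 pairs lay within 100 kb. Slc25a23 and Slc25a41 were 11.6 kb apart on chromosome 17 (differences 0.33 and 0.25), Ucp2 and Ucp3 13.5 kb apart on chromosome 7 (0.13 and 0.09), and Slc25a29 and Slc25a47 30.3 kb apart on chromosome 12 (-0.18 and -0.46). Slc25a43 and Slc25a5, 46.3 kb apart on chromosome X, had opposite signs (-0.22 and 0.27). Slc25a24, which fell, lay 51.9 kb from Slc25a54, which was too dim to test. No pair held 2 genes that passed.

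Among the promoter windows, 39 of the 50 genes had at least one, 49 in all. E-box letters stood in 8 of the 49 (16.3%) against 7.15% of all windows, ETS letters in 7 (14.3%) against 8.86%, and NRF1 letters in none against 0.971%. The E-box windows belonged to 7 genes: Slc25a1, Slc25a13, Slc25a14, Slc25a15, Slc25a31, Slc25a33 and Slc25a36. Slc25a31 was too dim to test, and none of the others passed the threshold. The ETS windows belonged to Slc25a3, Slc25a4, Slc25a17, Slc25a20, Slc25a25, Slc25a38 and Slc25a54. The window of Slc25a30, at chr14:75786988-75787287 (minus strand), held none of the 5 motifs.

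The machinery and enzymes that work with the carriers were read from the same fit, in which 8.74% of all genes were higher and 8.77% lower. No list, here or below, was tested as a set. No gene of the 15 that import carriers passed in limma, 5 had an unadjusted p under 0.05, 13 differences were above 0 and the median was 0.19; the smallest p belonged to Timm8a1 (0.24; limma adjusted p = 0.0532), a chaperone of the intermembrane space, then Timm22, the carrier insertase (0.32; adjusted p = 0.0796), and Tomm22, a receptor of the outer membrane (0.27; adjusted p = 0.0859). Under quantile scaling, cyclic loess or an intensity trend in eBayes 3 were higher, and under normexp 7 were higher and 1 lower. Without AdGFP 3, with the mean of the kept probes or among genes well above background on all 8 arrays, 1 was higher. Among 20 other mitochondrial transport genes 3 were higher and 3 lower, with a median of 0.08. Sfxn1, the serine transporter, rose by 0.66 (SE 0.10; limma adjusted p = 0.00374), Sfxn5 by 0.47 (SE 0.11; adjusted p = 0.0199), and Mcub, an inhibitory subunit of the calcium uniporter, fell by 0.92 (SE 0.16; adjusted p = 0.00709; -0.10 and not called under normexp). The higher count was 1 without AdGFP 1 or AdLeXis 2 and with scaling on the median, and the lower count was 1 with no filter on dim probes and without any one array other than AdGFP 4 and AdLeXis 1.

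Enzymes of the citrate and malate-aspartate shuttles, which act on the cargo of Slc25a1, Slc25a11, Slc25a12 and Slc25a13, gave 2 higher of 10 and a median of 0.07. They included Mdh2, mitochondrial malate dehydrogenase (0.30; limma adjusted p = 0.0345); Got2, the mitochondrial aspartate aminotransferase, was next (0.18; adjusted p = 0.123). Leaving out any one array except AdLeXis 1 gave a count of 0 or 1, and scaling on the median or no filter on dim probes gave 0. In the urea cycle and its feeder enzymes 1 of 9 passed, Oat, ornithine aminotransferase (-0.72; adjusted p = 0.0493), with a median of -0.13. Otc, ornithine transcarbamylase, differed by 0.37 (adjusted p = 0.135) and Arg1, arginase, by -0.23 (adjusted p = 0.249). Oat was lost without any one array except AdGFP 4 and AdLeXis 1, and under quantile, cyclic loess or normexp scaling, no filter on dim probes, the mean of the kept probes and robust eBayes. Of 12 genes of the carnitine shuttle and beta-oxidation 3 were higher, with a median of 0.17: Hadh (0.41; adjusted p = 0.0202), Acadvl (0.33; adjusted p = 0.0362) and Hadha (0.33; adjusted p = 0.0435), dehydrogenases of fatty acid breakdown. That count was 0 without AdGFP 1, AdLeXis 2 or AdLeXis 4 and with scaling on the median, 1 without AdGFP 4 or AdLeXis 3 and with no filter on dim probes, and 7 under normexp.

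Haem and iron-sulphur genes, which use the cargo of the mitoferrins and of Slc25a38, gave 1 lower of 14 and a median of 0.04. Alas1, which starts haem synthesis in liver, read 17.34, 17.40, 17.56 and 17.28 with AdGFP and 16.63, 16.61, 16.75 and 16.80 with AdLeXis. It fell by 0.70 (SE 0.09; limma adjusted p = 0.00253), and by 0.33 under normexp (adjusted p = 0.0785). Its mean of 17.05 lay above 16, where 157 of 400 genes were called lower and 3 higher, with a median difference of -0.23. Whether Alas1 fell apart from other genes as bright was not tested. Iscu, the iron-sulphur scaffold, differed by 0.52 (adjusted p = 0.0721) and Cpox, a haem enzyme, by 0.16 (adjusted p = 0.471). Among 9 factors of mitochondrial biogenesis 4 were higher, with a median of 0.31: Tfb1m (0.51; adjusted p = 0.00936), Tfam, which packages mitochondrial DNA (0.47; adjusted p = 0.0122), and Esrra, a nuclear receptor (0.34; adjusted p = 0.0279), had the smallest p. This count was 2 without AdGFP 1, AdGFP 3, AdGFP 4, AdLeXis 2 or AdLeXis 4, 2 with no filter on dim probes, and 1 with scaling on the median.

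**Figure D3:**
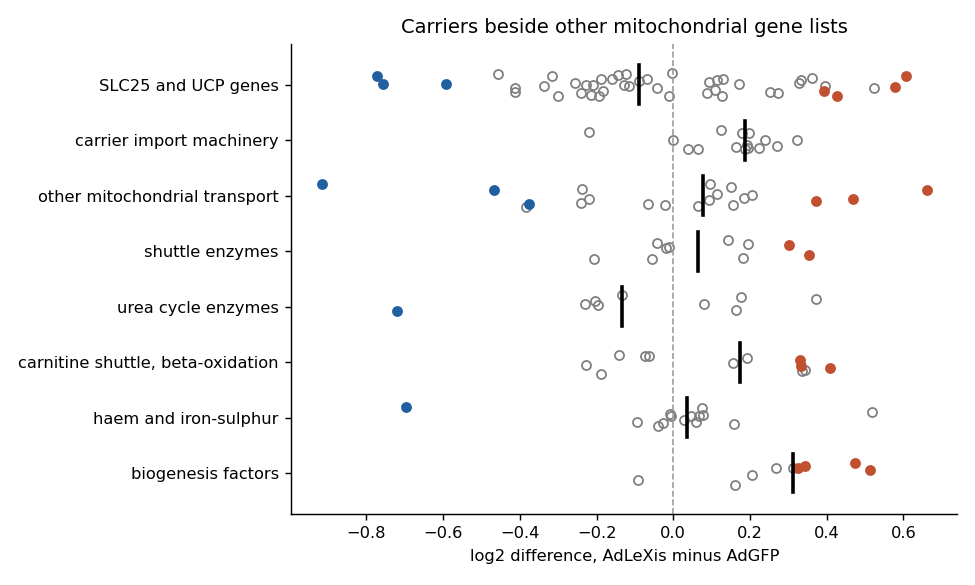
Log2 difference, AdLeXis minus AdGFP, of each tested carrier and of each gene on 7 lists of other mitochondrial genes; filled red and blue points passed as higher and lower at an adjusted p under 0.05, open points did not, black bars are list medians and the dashed line is the median of all genes. The carriers spread to both sides with a median of -0.09, while the import machinery and the biogenesis factors have medians of 0.19 and 0.31.

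Several of the carrier calls changed with the scaling. With each array scaled on its median in place of the 75th percentile, 1 carrier was higher and 3 lower, and over the whole array 1158 genes were higher and 2683 lower in place of 2096 and 2104. Slc25a11, Slc25a24, Slc25a25 and Slc25a30 were the 4 carriers that kept their call there. Under normexp with quantile scaling 6 carriers were higher and 4 lower, and 6 of the 7 calls were kept, all but Slc25a30.

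**Figure D4:**
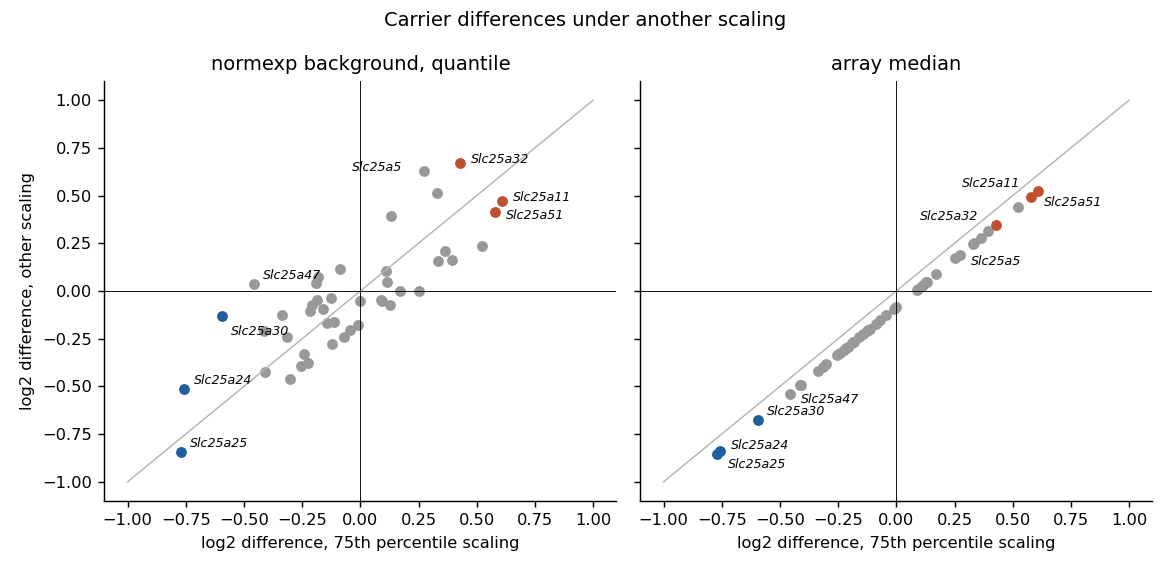
Log2 difference of 44 tested carriers with 75th percentile scaling (horizontal axis) against the same with normexp background correction and quantile scaling (left) or with each array scaled on its median (right); red and blue mark 3 higher and 3 lower carriers and the grey line marks equal values. On the right all points are shifted down by a like amount, while on the left Slc25a30 moves from -0.59 to -0.13, Slc25a47 from -0.46 to 0.03 and Slc25a5 from 0.27 to 0.63.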

How the data were processed

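Each deposited scanner file gives linear spot intensity. Per the file headers the software was Agilent Feature Extraction, version 11.5.1.1 (11.5.1.11 per the submitters' processing notes). The authors' processed intensity is background-subtracted and detrended per the file headers, and the deposited value table holds the same numbers (largest difference 0; column medians 12.7 to 27.7; linear, not centred). Of 59305 non-control spots per array, 127 to 256 were outliers and left out, and none was saturated. The log2 intensity was scaled on each array's 75th percentile, and spots of one probe were averaged. Of 55681 probes, 34440 were kept: those well above background on 4 or more arrays with 2 or more measured arrays in each group. The kept probe with the highest mean stood for its gene. Of the probes, 27656 were named by accession and 3401 by symbol through a RefSeq table (GRCm38.p6); 24624 kept the file's name. Probe positions are those of mm9 in the files.

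Groups were compared in limma 3.58.1 (R 4.3.3; lmFit, eBayes, two-sided) with Benjamini-Hochberg adjustment over all 23985 genes and a threshold of 0.05. A second adjustment over all kept probes served genes with several probes. The number of arrays, 4 per group, limits the precision. The members and lists were chosen with earlier results of these data known. The rule names all members (1 carrier, and 1 gene of a pathway list, enter the counts but are not reported here), with values on every array for those past the threshold and the smallest p of each role, and up to 3 genes of smallest p per pathway list; values of other genes and arrays were chosen after they were seen. Replicate numbers come from the titles, and deposited files carry other numbers. Deviations of same-numbered arrays from their group means correlated at 0.000 to 0.116, so the numbers were not taken to pair the samples. The 20 alternatives covered scaling, background correction, filter, probe choice, variance model, replicate block, the value table and each array left out. The value table holds the same numbers as the files, so its fit was bound to match the main one. Promoter windows were taken from RefSeq.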

Additional observations from a re-analysis of the deposited data

Results flagged for a closer look

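Each carrier probe was checked in each group for an array far from the other 3 of its group (Dixon's test at the 95% level). Of 108 such groups 5 had one, and chance alone gives about 1 in 20. Slc25a22 read 7.09 on AdLeXis 2 against 6.58 to 6.62 on the other AdLeXis arrays. Slc25a32 read 9.65 on AdGFP 4 against 9.89 to 9.92, and without that array its rise was 0.36. Slc25a42 read 13.12 on AdLeXis 1 against 13.33 to 13.37. The second Slc25a5 probe read 6.60 on AdLeXis 1 against 2.98 to 3.36. The dimmer Slc25a44 probe read 7.46 on AdLeXis 2 against 7.67 to 7.71.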

How the results depend on the processing

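The count of carriers called higher, 4, was 1 with each array scaled on its median, 2 with no filter on dim probes and 8 with an intensity trend in eBayes. Leaving out one array gave 2 to 7: 2 without AdGFP 4, AdLeXis 2 or AdLeXis 4, and 7 without AdLeXis 1. The count called lower, 3, was 3 or 4 under all 20 settings. With the replicate number as a block, 2 carriers were higher and 3 lower, with Slc25a32 among the calls lost (adjusted p = 0.0534), and 1522 genes in all were higher and 1627 lower; not every array correlated best with its own number. Slc25a11, Slc25a24 and Slc25a25 kept their call under all 20. Signs turned under normexp for Slc25a10 (-0.074), Slc25a12 (0.040), Slc25a21 (0.114), Slc25a26 (-0.053), Slc25a29 (0.074), Slc25a46 (-0.0019), Slc25a47 (0.035) and Ucp3 (-0.049), and for the list genes Cpox (-0.016), Arg1 (0.033) and Alb (0.27; 0.00 under quantile scaling). Under cyclic loess they turned for Slc25a18 (0.023), Slc25a38 (0.0063) and Slc25a42 (0.0021). With one array left out, values ran from -0.15 to 0.16 for Slc25a18, from -0.081 to 0.027 for Slc25a38, from -0.27 (without AdGFP 1) to 0.54 for Slc25a41, from -0.088 to 0.046 for Slc25a42 and from -0.018 to 0.20 for Ucp3. Of these genes Alb alone had passed; the cause was not tested. Dim probes, such as those of Slc25a18 and Slc25a41, had wide intervals, so differences near theirs were not detectable.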
